A study of Mus musculus with 6 samples.

Results

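Tuft cells are rare chemosensory cells of the intestinal epithelium. They arise under the transcription factor Pou2f3, read luminal signals through a taste-like cascade of G proteins and the cation channel Trpm5, and release interleukin-25, which acts on type 2 lymphocytes. Their advillin-rich apical brush and the kinase Dclk1 have long served as markers of the lineage, and Dclk1 has also been followed in intestinal tumors. The 8 genes Dclk1, Trpm5, Pou2f3, Il25, Avil, Gnat3, Sh2d6 and Gfi1b were taken by their names from the 54532 genes of the table, and each name matched 1 gene. They were followed in RNA-seq of colon tumors.

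The study compared tumors of Tmem173fl/fl mice, which carry floxed alleles of Tmem173, the gene of STING, with those of Tmem173fl/flLzym-Creert2 mice, here Tmem173iΔmye, in which tamoxifen activates a Cre driven in myeloid cells by the lysozyme gene. The labels call the groups WT and CRE. Both went through 3 cycles of AOM, a carcinogen, with DSS, which injures the colon, and both were given tamoxifen once tumors had formed, as in the AOM+DSS-L groups of the study. The control mice lacked Cre, so the presence of Cre and the loss of Tmem173 cannot be told apart. Each group held 3 tumors, and the labels give neither the age nor the sex of the mice. The RNA came from whole tumor, so fewer cells of a type and less RNA per cell cannot be told apart.

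Between 15329810 and 16533732 reads were counted on genes in each tumor. Tmem173 had 1705 to 2911 counts in the Tmem173fl/fl and 1953 to 2291 counts in the Tmem173iΔmye tumors, so whole tumor RNA did not separate the genotypes. Counts on 4 Y-linked genes were 2655 to 3547 in Tmem173fl/fl replicate 1 and in both Tmem173iΔmye replicates 1 and 2, with at most 2 elsewhere, so the sexes were not balanced. Over the 16426 genes with a mean FPKM (fragments per kilobase of gene, scaled to the library) of at least 0.5, 0 genes, 0.0%, had a Benjamini-Hochberg adjusted p under 0.05 in edgeR for Tmem173iΔmye over Tmem173fl/fl, the direction of every log2 fold change given here, while 1008, or 6.14%, had an unadjusted p under 0.05. DESeq2 called 28 of the same genes at an adjusted p under 0.05, or 0.17%. The epithelium was present in every tumor, with a summed FPKM of 10 epithelial genes, Epcam and Krt8 among them, between 6430 and 8234.

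The 8 genes were measured at very different levels. Avil was the highest at 33.6 ± 9.06 FPKM (SD over the 6 tumors), followed by Sh2d6 at 3.42 ± 0.70. Trpm5 at 0.42 ± 0.080 and Dclk1 at 0.38 ± 0.063 came next. FPKM divides by the deposited gene length, which was 15296 bases for Dclk1 and 1737 bases for Sh2d6. Their counts summed over the 6 tumors were close, 547 and 566, so their order in FPKM depends on the lengths. Gnat3, Gfi1b, Pou2f3 and Il25 had mean FPKM values of 0.14, 0.11, 0.075 and 0.030, and none of these 4 genes reached more than 7 counts in any tumor. The lowest Avil value, 23.1 FPKM, lay above the highest Sh2d6 value, 4.35 FPKM, and the lowest Sh2d6 value, 2.31 FPKM, lay above the highest Trpm5 value, 0.56 FPKM. All later neighbours in this order had overlapping ranges, although Dclk1 was above Gnat3 in 6 of the 6 tumors, and Trpm5 was above Dclk1 in 3 of the 6 tumors. Only Avil and Sh2d6 passed the filter of a mean FPKM of 0.5. The other 6 genes were fitted among all 30939 genes with any count.

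**Figure D1:**
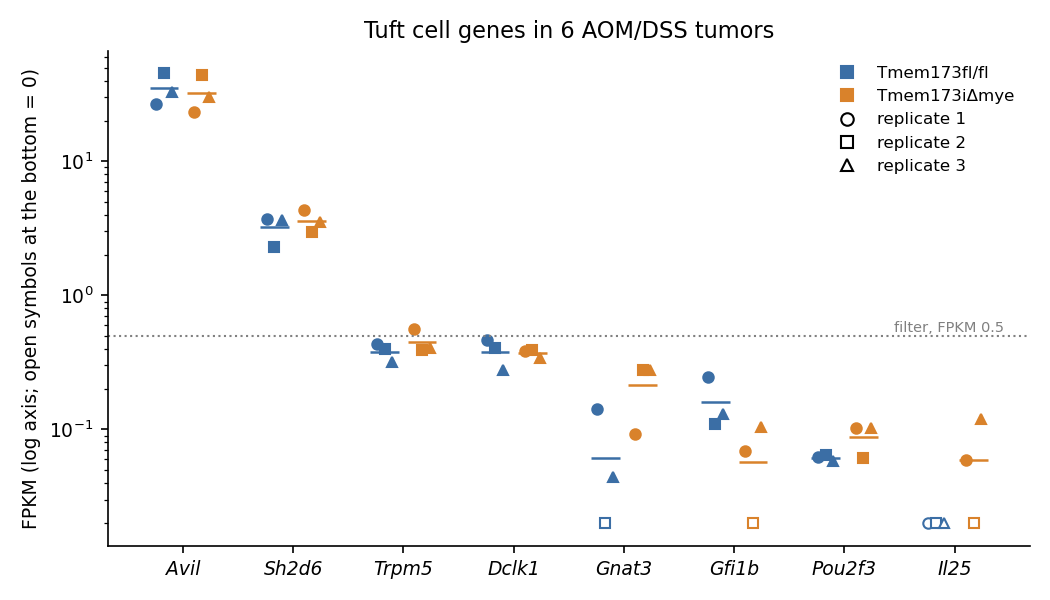
FPKM of the 8 tuft cell genes (x axis) in the 6 tumors, on a log axis, with the group in colour, the replicate as the symbol, group means as bars and values of 0 as open symbols at the bottom. Avil lies between 23.1 and 45.4 FPKM in every tumor, whereas Dclk1 and Trpm5 lie between 0.28 and 0.56 FPKM.

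Avil, which encodes the actin-binding protein advillin, stood at 9.84 times the mean FPKM of Sh2d6, 80.7 times that of Trpm5 and 89.1 times that of Dclk1, and the ratio to Sh2d6 ranged from 5.32 to 19.6 over single tumors. These ratios also depend on the deposited lengths, 3398 bases for Avil against 15296 bases for Dclk1. Pou2f3, on which the lineage depends, was at 3 to 5 counts per tumor. Avil made up 80.4% to 93.3% of the summed FPKM of the 8 genes, so that sum follows Avil. Without Avil it ran from 3.28 to 5.62 FPKM. Because the lineage-defining genes were near the floor, Avil is described here as Avil expression and not as an amount of tuft cells.

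Across the 6 tumors, Avil and Sh2d6 ran in nearly opposite order. Avil was highest in replicate 2 of either group, at 45.4 FPKM in Tmem173fl/fl and 43.8 FPKM in Tmem173iΔmye, and these 2 tumors had the lowest Sh2d6 values, 2.31 and 2.99 FPKM. Avil was lowest in Tmem173iΔmye replicate 1, at 23.1 FPKM, where Sh2d6 was highest, at 4.35 FPKM. The Pearson correlation of their log2(CPM + 1) values over the 6 tumors, which share the scaling of each library, was -0.93 (Spearman -0.94). Between Avil and Trpm5 it was -0.57, and between Avil and Dclk1 it was -0.042. Between Trpm5 and Dclk1 it was 0.58, between Sh2d6 and Trpm5 0.46 and between Sh2d6 and Dclk1 -0.11. These coefficients describe 6 tumors and carry no test.

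**Figure D2:**
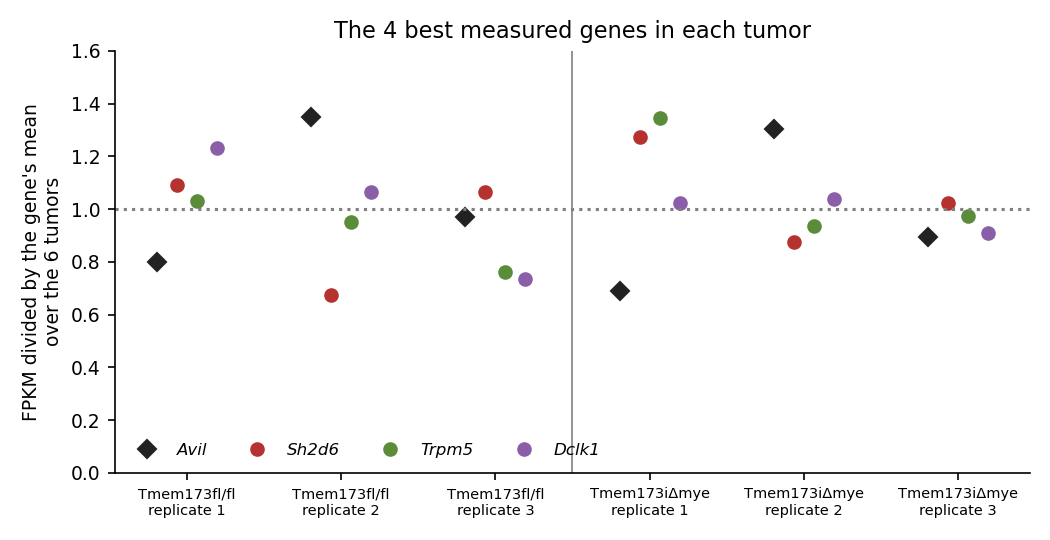
FPKM of Avil, Sh2d6, Trpm5 and Dclk1 in each tumor (x axis), divided by the gene's own mean over the 6 tumors (y axis, no unit). Avil is farthest above its mean in replicate 2 of each group, the tumors in which Sh2d6 is farthest below its own.

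Avil lies on the plus strand of chromosome 10 of GRCm38, from 127000709 to 127020994, and Sh2d6, which encodes an adaptor with an SH2 domain, on the minus strand of chromosome 6, from 72513644 to 72521634. Dclk1, a doublecortin-like kinase, occupies the plus strand of chromosome 3 from 55242364 to 55539068. RefSeq lists 2 start sites for it, 219364 bases apart, and the deposited value is 1 count over the whole gene, so transcripts from either start are summed. The windows below hold 250 bases before and 50 bases after each start, from RefSeq on GRCm38.p6, and are shown because Avil and Sh2d6 are the members past the filter and ran in nearly opposite order and because the counts cannot say which Dclk1 start was used. Capitals mark the bases from the start site onward. The RefSeq start of Sh2d6 lies inside the gene bounds given above and not at 72521634.
Avil, chr10:127000459-127000758, plus strand: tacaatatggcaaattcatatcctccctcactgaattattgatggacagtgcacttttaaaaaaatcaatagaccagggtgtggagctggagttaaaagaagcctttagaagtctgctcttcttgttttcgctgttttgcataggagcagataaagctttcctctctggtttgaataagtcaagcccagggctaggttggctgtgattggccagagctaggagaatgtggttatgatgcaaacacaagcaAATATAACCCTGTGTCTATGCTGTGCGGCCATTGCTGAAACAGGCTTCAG
Sh2d6, chr6:72519987-72520286, minus strand: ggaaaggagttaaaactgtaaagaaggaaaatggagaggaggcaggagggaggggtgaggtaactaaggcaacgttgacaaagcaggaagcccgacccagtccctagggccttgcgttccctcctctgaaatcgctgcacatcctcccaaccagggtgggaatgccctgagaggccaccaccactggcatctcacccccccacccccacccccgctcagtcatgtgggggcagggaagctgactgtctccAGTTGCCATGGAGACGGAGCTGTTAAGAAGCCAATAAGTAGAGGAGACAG
Dclk1, upstream start, chr3:55242114-55242413, plus strand: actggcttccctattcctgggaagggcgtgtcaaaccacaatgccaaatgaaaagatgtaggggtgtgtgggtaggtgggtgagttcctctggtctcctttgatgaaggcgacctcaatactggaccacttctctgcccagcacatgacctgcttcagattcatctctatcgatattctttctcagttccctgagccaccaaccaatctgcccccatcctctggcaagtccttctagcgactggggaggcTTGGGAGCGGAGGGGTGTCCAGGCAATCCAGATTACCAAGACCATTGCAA
Dclk1, downstream start, chr3:55461478-55461777, plus strand: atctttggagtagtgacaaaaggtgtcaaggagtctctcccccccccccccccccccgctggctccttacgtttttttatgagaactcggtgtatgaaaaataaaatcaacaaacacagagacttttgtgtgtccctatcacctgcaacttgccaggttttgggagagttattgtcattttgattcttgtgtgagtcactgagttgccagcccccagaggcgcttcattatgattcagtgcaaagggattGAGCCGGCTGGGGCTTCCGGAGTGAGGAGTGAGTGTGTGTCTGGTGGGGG

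Windows were found for 6 of the 8 genes, 7 windows in all. The octamer ATGCAAAT, the sequence for which the POU factors of the Pou2f family are known, was searched on both strands. It was in 0 of these 7 windows and in 1.74% of all 32851 promoter windows of the same length, which says only that these letters are not in these windows. The Avil window had a GC content of 43.0% and 2 CpG dinucleotides, and the Sh2d6 window 57.3% and 6, beside medians of 52.7% and 7 over all windows.

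Of the 8 genes, 0 had an adjusted p under 0.05 and 0 an unadjusted p under 0.05 for Tmem173iΔmye over Tmem173fl/fl in edgeR, beside 6.14% of the genes tested for Avil and Sh2d6 and 5.63% of all genes with a count for the other 6, where 0.0194% had an adjusted p under 0.05. DESeq2 also gave 0 of 8 at an unadjusted p under 0.05, beside 6.65% of the genes tested. Log2 fold changes were above 0 for 4 of the 7 genes with a fold change, beside 49.4% of all genes tested. The shares of 6.65% and 49.4% are over genes past the filter, which include only Avil and Sh2d6 of the 8. The CPM values (counts scaled to the library size) of the groups did not overlap for 1 gene, Gfi1b, beside 12.5% of the genes tested and 9.69% of all genes with a count. Like Gfi1b, 5.17% of all genes with a count were lower in Tmem173iΔmye without overlap.

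Avil had 26.9, 45.4 and 32.6 FPKM in Tmem173fl/fl replicates 1, 2 and 3 and 23.1, 43.8 and 30.1 FPKM in Tmem173iΔmye replicates 1, 2 and 3. The groups covered nearly the same range. The group means were 35.0 ± 9.45 (SD, n = 3) and 32.3 ± 10.5 FPKM (SD, n = 3), and the log2 fold change by edgeR was -0.11 (SE 0.27, adjusted p = 0.927). Its 95% interval ran from -0.74 to 0.51, or 0.60 to 1.43 as a fold, and an exact two-sided permutation test of CPM gave p = 0.7, where 3 against 3 cannot go below 0.1. Without Tmem173fl/fl replicate 2 the log2 fold change was 0.11, without Tmem173iΔmye replicate 1 it was 0.080, and without Tmem173iΔmye replicate 2 it was -0.40. Of the exonic bases of Avil, 4.86% are also exon of Tsfm on the opposite strand, a gene at 7.69 to 14.7 FPKM. The strand setting of the counting was not given in the sources used here, and the part of Tsfm in the Avil counts was not tested.

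Sh2d6 had 3.72, 2.31 and 3.64 FPKM in Tmem173fl/fl replicates 1, 2 and 3 and 4.35, 2.99 and 3.50 FPKM in Tmem173iΔmye replicates 1, 2 and 3. The groups overlapped, with the lowest and the highest value in different groups. The means were 3.22 ± 0.79 (SD, n = 3) and 3.61 ± 0.69 FPKM (SD, n = 3), with a log2 fold change by edgeR of 0.16 (SE 0.29, adjusted p = 0.897) and a 95% interval of -0.51 to 0.83. The exact permutation p was 0.6. Without Tmem173fl/fl replicate 2 the log2 fold change was -0.036, and none of the 1690 exonic bases of Sh2d6 in GENCODE is shared with another gene. The deposited length of Sh2d6 is 1737 bases and its bounds differ from those of GENCODE, so the bases counted were not exactly these.

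Dclk1 had 0.46, 0.40 and 0.28 FPKM in Tmem173fl/fl replicates 1, 2 and 3, from 111, 92 and 71 counts. It had 0.39, 0.39 and 0.34 FPKM in Tmem173iΔmye replicates 1, 2 and 3, from 94, 96 and 83 counts. All Tmem173iΔmye values lay within the range of the Tmem173fl/fl values. The log2 fold change by edgeR was -0.016 (SE 0.31, adjusted p = 0.999994), with a 95% interval of -0.68 to 0.65, or 0.62 to 1.56 as a fold, and an exact permutation p of 0.8. Leaving out single tumors moved it between -0.20, without Tmem173fl/fl replicate 3, and 0.16, without Tmem173fl/fl replicate 1.

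Trpm5, the channel that opens at the end of the taste-like cascade, was read 43, 38 and 34 times in Tmem173fl/fl replicates 1 to 3 and 57, 40 and 41 times in Tmem173iΔmye replicates 1 to 3. In FPKM these were 0.43, 0.40 and 0.32 against 0.56, 0.39 and 0.41. The groups overlapped, and Tmem173iΔmye replicate 1 was the highest tumor. The log2 fold change by edgeR was 0.26 (SE 0.38, adjusted p = 0.848), with a 95% interval of -0.55 to 1.06 and an exact permutation p of 0.5. Without Tmem173iΔmye replicate 1 it was 0.071. Trpm5 lies on the minus strand of chromosome 7 from 143069153 to 143094642, and 220 of its exonic bases, 3.44%, are also exon of Tssc4 on the plus strand. Tssc4 stood at 17.5 to 34.1 FPKM, far above Trpm5, and its part in the Trpm5 counts was not tested.

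The other 4 genes were near the limit of detection, and their fold changes rest on few reads. Pou2f3, on the minus strand of chromosome 9 from 43123939 to 43210369, was read 3, 3 and 3 times in Tmem173fl/fl replicates 1 to 3 and 5, 3 and 5 times in Tmem173iΔmye replicates 1 to 3. The ratio of the summed counts, 13 over 9, was 1.41 after division by the library totals, with an exact 95% interval of 0.56 to 3.74 that covers counting error only. Its log2 fold change by edgeR was 0.51 (SE 0.86, adjusted p = 0.879). Gnat3, the G protein alpha subunit gustducin on chromosome 5 from 17962549 to 18019834, was read 3, 0 and 1 times in Tmem173fl/fl replicates 1 to 3 and 2, 6 and 6 times in Tmem173iΔmye replicates 1 to 3. Its summed counts were 4 and 14, a ratio of 3.42 with a counting interval of 1.07 to 14.3. Between tumors the groups overlapped, and edgeR put the log2 fold change at 1.72 (SE 1.10, adjusted p = 0.767). It was 2.96 without Tmem173fl/fl replicate 1.

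Gfi1b, a transcriptional repressor on chromosome 2 from 28609450 to 28621982, was read 7, 3 and 4 times in Tmem173fl/fl replicates 1 to 3 and 2, 0 and 3 times in Tmem173iΔmye replicates 1 to 3. It was the 1 gene whose CPM values did not overlap, since the lowest Tmem173fl/fl value, 0.200 CPM, lay just above the highest Tmem173iΔmye value, 0.191 CPM, both from 3 counts. The exact permutation p was 0.1, the smallest that 3 against 3 allow. The ratio of the summed counts, 5 over 14, was 0.35 with a counting interval of 0.098 to 1.03, and edgeR put the log2 fold change at -1.42 (SE 1.05, adjusted p = 0.767). It was -0.86 without Tmem173iΔmye replicate 2. Il25, which encodes the cytokine by which tuft cells signal to type 2 lymphocytes, lies on chromosome 14 from 54932695 to 54935837. It had 0 counts in each Tmem173fl/fl tumor and 1, 0 and 2 counts in the Tmem173iΔmye tumors. A count of 0 allows up to 3 counts, or 0.188 to 0.196 CPM of the raw totals in these Tmem173fl/fl libraries, and no fold change is given because neither group exceeded 3 counts in sum.

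**Figure D3:**
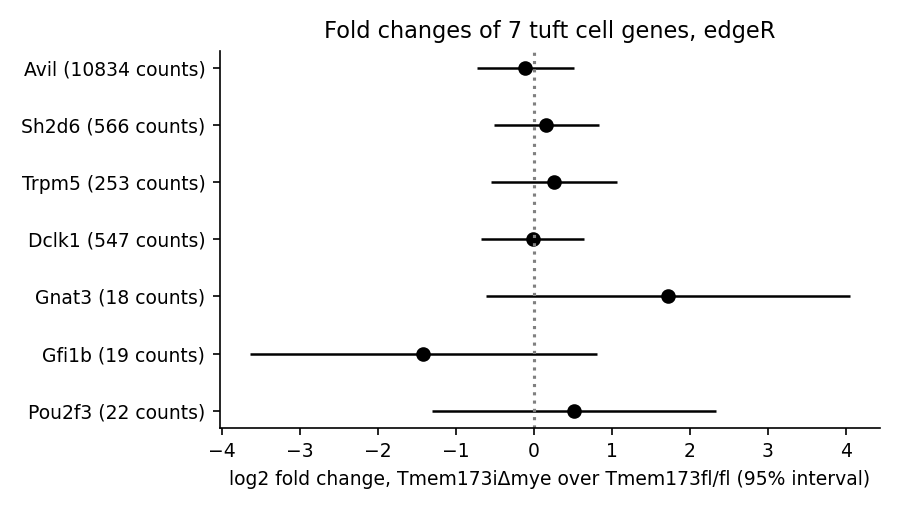
Log2 fold changes (x axis) of the 7 tuft cell genes with a fold change (y axis, with their counts summed over the 6 tumors), as points with 95% intervals from edgeR. All 7 intervals include 0, from -0.74 to 0.51 for Avil and up to -0.62 to 4.05 for Gnat3.

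The cascade around Gnat3 and Trpm5 was measured in part. Of 9 further genes (Sucnr1, Ffar3, Tas1r1, Tas1r3, Gnb3, Gng13, Plcb2, Itpr2 and Itpr3), 3 passed the filter, and 1 of these had an unadjusted p under 0.05, beside 6.14% of all genes tested. Itpr2, a receptor that releases calcium from internal stores, had 1.97, 2.94 and 2.36 FPKM in the Tmem173fl/fl and 1.07, 1.98 and 1.35 FPKM in the Tmem173iΔmye tumors. The groups overlapped by the narrow margin between 1.97 and 1.98 FPKM. The log2 fold change by edgeR was -0.72 (SE 0.26, unadjusted p = 0.0234, adjusted p = 0.742). Its unadjusted p was 0.0799 without Tmem173fl/fl replicate 2, 0.0629 without Tmem173iΔmye replicate 1 and 0.0687 without Tmem173iΔmye replicate 3 from edgeR. With Y-linked reads as a covariate the unadjusted p of Itpr2 from edgeR was 0.0544. Of the 3 genes past the filter, Plcb2 went the other way, with a log2 fold change of 0.53, and Itpr3 was at -0.27. Sucnr1, the succinate receptor, and Gng13, a G protein gamma subunit of the cascade, had at most 3 counts in every tumor. They and the other genes at the floor are named here after their values were seen.

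Of 7 transcription regulators beside Pou2f3 and Gfi1b (1810046K07Rik, Gm684, Spib, Hmx2, Hmx3, Ascl2 and Sox4), 4 passed the filter and 0 had an unadjusted p under 0.05 in edgeR. Gm684 is listed in the table as Colca2. The homeobox genes Hmx2 and Hmx3 had at most 3 counts in every tumor. Sox4, which takes part in the specification of tuft cells among other roles, had 49.2 ± 20.5 FPKM (SD, n = 3) in the Tmem173fl/fl and 31.4 ± 10.3 FPKM (SD, n = 3) in the Tmem173iΔmye tumors, and a log2 fold change by edgeR of -0.64 (SE 0.34, adjusted p = 0.742). Spib ranged from 0.19 to 7.63 FPKM over the tumors, with its highest values in Tmem173fl/fl replicate 1 and Tmem173iΔmye replicate 2. The B cell gene Cd79a was highest in the same tumors, at 467 and 279 counts against 10 to 54 in the others, and the part of B cells in Spib was not tested.

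Among 7 enzymes of lipid mediator and acetylcholine production (Alox5, Alox5ap, Ltc4s, Ptgs1, Hpgds, Pla2g4a and Chat), 5 passed the filter and 0 had an unadjusted p under 0.05 in edgeR. Their median log2 fold change was 0.31, beside -0.0042 over all genes tested. It was -0.16 without Tmem173iΔmye replicate 3, the tumor with the most reads of the mast cell gene Cpa3, and -0.024 without Tmem173iΔmye replicate 1, so its direction rests on single tumors. Ptgs1, cyclooxygenase-1, had 9.09 ± 2.44 FPKM (SD, n = 3) in the Tmem173fl/fl and 6.58 ± 1.55 FPKM (SD, n = 3) in the Tmem173iΔmye tumors, a log2 fold change by edgeR of -0.47 (SE 0.25, adjusted p = 0.742). Chat, which makes acetylcholine, had 0 to 7 counts per tumor. Several genes of this list and of the next are also expressed by leukocytes.

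Of 17 other genes used as tuft markers, 13 passed the filter, with a median log2 fold change of -0.069 that became 0.083 without Tmem173fl/fl replicate 1. Rgs13, a regulator of G protein signalling, was under the filter with 2 to 23 counts per tumor. Vav1, a guanine nucleotide exchange factor that hematopoietic cells also express, was the 1 gene of these 13 with an unadjusted p under 0.05, beside 6.14% of all genes tested. It had 8.85, 8.63 and 9.02 FPKM in the Tmem173fl/fl and 6.68, 6.66 and 6.57 FPKM in the Tmem173iΔmye tumors, without overlap. The log2 fold change by edgeR was -0.41 (SE 0.13, unadjusted p = 0.0136, adjusted p = 0.742), and it lay between -0.44 and -0.39 when single tumors were left out. Fyb and Inpp5j of this list also did not overlap between the groups. Both were higher in Tmem173iΔmye, with log2 fold changes of 0.33 and 0.30. Of all genes tested, 12.5% did not overlap in either direction. The leukocyte gene Ptprc was read 917, 338 and 414 times in Tmem173fl/fl replicates 1 to 3 and 674, 680 and 460 times in Tmem173iΔmye replicates 1 to 3, so the groups overlapped.

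On the side that answers Il25, 11 of 14 genes of the type 2 circuit passed the filter, with a median log2 fold change of 0.23. It ran from 0.019 without Tmem173fl/fl replicate 1 to 0.46 without Tmem173fl/fl replicate 2, and was 0.045 without Tmem173iΔmye replicate 3. Il17rb, the receptor chain for interleukin-25, had 1.002, 1.19 and 0.93 FPKM in the Tmem173fl/fl and 0.76, 0.71 and 1.08 FPKM in the Tmem173iΔmye tumors, and the groups overlapped. The cytokines Il5, with 0 counts in every tumor, and Il13, with 0 to 2 counts, were at the floor. Areg, the EGF receptor ligand amphiregulin, was the 1 gene of these 11 with an unadjusted p under 0.05, beside 6.14% of all genes tested. It had 41.6, 21.3 and 23.4 FPKM in the Tmem173fl/fl and 80.0, 45.3 and 34.6 FPKM in the Tmem173iΔmye tumors, with overlapping groups and a log2 fold change by edgeR of 0.88 (SE 0.36, unadjusted p = 0.0425, adjusted p = 0.742). Without Tmem173iΔmye replicate 1 it was 0.47, without Tmem173fl/fl replicate 2 it was 0.70 and without Tmem173fl/fl replicate 3 it was 0.76, each with an unadjusted p above 0.05 in edgeR. Which cells of the tumor the Areg reads came from was not tested. Over all 54 genes of these 5 lists, 36 passed the filter, of which 3, or 8.33%, had an unadjusted p under 0.05 against 6.14% of all genes tested. Of these, 1 was higher in Tmem173iΔmye, beside 3.23% of all genes tested, and 2 were lower, beside 2.9%. Of the 36, 18 had a log2 fold change above 0.

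**Figure D4:**
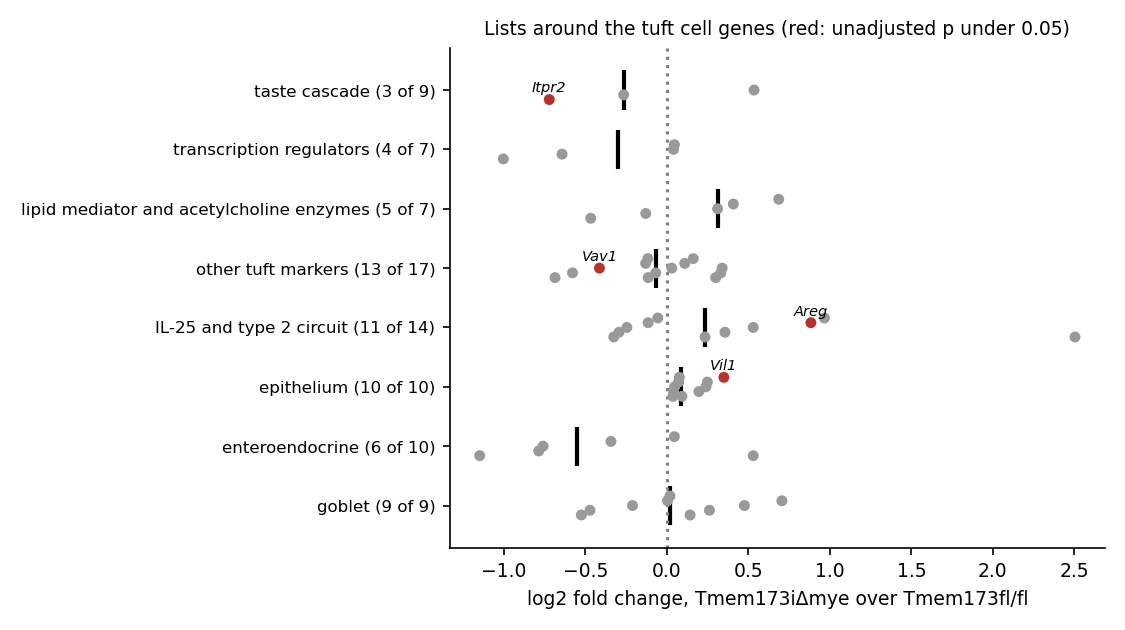
Log2 fold changes (x axis) of the genes that passed the filter in 8 lists (y axis, with the number that passed of the number listed), 1 point per gene, with the list's median as a bar and genes with an unadjusted p under 0.05 in red. In the 5 lists around the tuft cell genes, Itpr2, Vav1 and Areg are the red points.

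Other epithelial lineages are given for comparison, without a test against the tuft cell genes. All 9 goblet cell genes passed the filter, and 0 of them had an unadjusted p under 0.05 in edgeR. Their summed FPKM ranged from 655 to 2963 in the Tmem173fl/fl and from 1185 to 3281 in the Tmem173iΔmye tumors. Of 10 enteroendocrine genes, 6 passed the filter, with a median log2 fold change of -0.55 and 0 genes at an unadjusted p under 0.05 in edgeR. Of these 6, 4 lay below 0 and 2 above, Tph1 at 0.53 and Insl5 at 0.046. Chga, the chromogranin of endocrine granules, had 5.41 ± 2.54 FPKM (SD, n = 3) in the Tmem173fl/fl and 3.15 ± 1.02 FPKM (SD, n = 3) in the Tmem173iΔmye tumors. Summed over the 10 enteroendocrine genes, the FPKM was 40.1 to 143 and 29.4 to 60.2. The sum of 143 was that of Tmem173fl/fl replicate 3, where Pyy alone had 115 FPKM and Chga was highest, at 8.14 FPKM. Pyy had 17.7 to 40.0 FPKM in the other tumors. All 10 epithelial genes had a positive log2 fold change (median 0.084), beside 49.4% of all genes tested, and Vil1, the brush border protein villin, was the 1 with an unadjusted p under 0.05, beside 6.14% of all genes tested (log2 fold change 0.35, unadjusted p = 0.0495, adjusted p = 0.742 from edgeR). Of the 6 edgeR fits that left out 1 tumor, only that without Tmem173fl/fl replicate 1 kept the unadjusted p of Vil1 under 0.05, and with Y-linked reads as a covariate it was 0.103. When library sizes were replaced by the summed counts of these epithelial genes, so that a change is per epithelial RNA, the log2 fold change was -0.23 for Avil, 0.045 for Sh2d6, 0.12 for Trpm5 and -0.14 for Dclk1, against a median of -0.12 over all genes tested. Trpm5 and Dclk1, under the filter, are not among the genes of that median.

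Some of the 8 genes are known from other cell types of the tumor. Neurons express Dclk1, and the summed FPKM of 10 neuronal and glial genes was 6.92 to 13.2 in the Tmem173fl/fl and 8.22 to 13.3 in the Tmem173iΔmye tumors, with S100b at 0 to 3 counts. Mast cells make lipid mediators with Hpgds and Alox5, which belong to the list of enzymes above and not to the 8 genes. The summed FPKM of 7 mast cell genes was 28.1 to 223 in the Tmem173fl/fl and 48.7 to 863 in the Tmem173iΔmye tumors. Cpa3, the mast cell carboxypeptidase, had 665 counts in Tmem173iΔmye replicate 3 and 61 to 118 counts in the other tumors. Erythroid cells and megakaryocytes express Gfi1b. For 7 of their genes the sum was 16.7 to 35.4 and 15.1 to 18.7 FPKM. Ppbp alone had 28.3 FPKM in Tmem173fl/fl replicate 2, and 2.75 to 4.24 FPKM in the other tumors. Of the 5 genes that passed the filter, 3 had a log2 fold change below 0. The 2 above 0 were Itga2b at 0.87 and Pf4 at 0.022. Only 1 had an unadjusted p under 0.05 in edgeR, beside 6.14% of all genes tested. In this list Alas2, the enzyme that starts heme synthesis in erythroid cells, was read 12, 46 and 96 times in Tmem173fl/fl replicates 1 to 3 and 13, 15 and 20 times in Tmem173iΔmye replicates 1 to 3, with a log2 fold change by edgeR of -1.66 (SE 0.66, unadjusted p = 0.0382, adjusted p = 0.742). It was -0.91 without Tmem173fl/fl replicate 3, and of the 6 fits without 1 tumor, its unadjusted p in edgeR was under 0.05 only in that without Tmem173fl/fl replicate 1. With Y-linked reads as a covariate, the log2 fold change of Alas2 by edgeR was -0.89 (unadjusted p = 0.191). Gp9 of the same list had at most 3 counts in every tumor. The part of these cells in the Dclk1, Gfi1b, Hpgds and Alox5 counts was not tested.

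The genes whose log2(CPM + 1) followed the mean standardized level of Avil and Sh2d6 most closely over the 6 tumors were Gm24313, Mir7237, Atp6v0e2, Spns1 and Tm4sf4, with Pearson correlations of 0.977 to 0.996. Because Avil and Sh2d6 ran in nearly opposite order, their mean keeps little of either, and each gene was also taken alone, a choice made after the values were seen. Avil alone was followed most closely by Gm13807, Vangl1, Cox18, CT025592.1 and Zfp334 (Pearson 0.982 to 0.992). For Sh2d6 alone the genes were Cox7a2l, 2310026L22Rik, Hand2, Ccdc9 and 1190007I07Rik (0.989 to 0.999). No known tuft cell gene of the lists could appear here, since all listed genes were left out of the search, and with 6 tumors among 16426 genes such coefficients are a description only.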

How the data were processed

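RNA-seq was made from 3 Tmem173fl/fl and 3 Tmem173iΔmye tumors. The authors deposited raw counts per gene and FPKM values in 1 table. Per the labels' processing notes, CASAVA 1.8, fastp, HISAT2 2.0.5, featureCounts 1.5.0-p3 and DESeq2 1.20.0 were used with GRCm38. The deposited FPKM values equal the counts over gene length, median-of-ratios size factors and the geometric mean of the library totals, within a relative difference of 5e-07. The authors' own fold changes and p-values in the table were not used.

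The quasi-likelihood test of edgeR 4.0.16 (R 4.3.3) was run on the counts with TMM scaling and the group alone in the model, and p-values were adjusted by Benjamini-Hochberg over 16426 genes whose mean FPKM reached 0.5. Genes under this filter were fitted among all 30939 genes with a count. SE is the absolute log2 fold change over the square root of F, and the 95% interval uses the fit's degrees of freedom. CPM are TMM-normalized, and single genes were compared by exact permutation tests (scipy 1.17.1). Limma 3.58.1, DESeq2 1.42.0, scalings, filters, the replicate number as a block, Y-linked reads as a covariate and leaving out each tumor were alternatives. The steps were tested on simulated counts of 16426 genes, of which 200 were changed. At an adjusted p under 0.05, edgeR called 18% of the genes with a log2 change of 1 in size and 69% of those with 2. Of its 94 calls, 7 were unchanged genes. DESeq2 made 169 calls, of which 38 were unchanged genes.

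Named genes are all 8 members and, of each list, those with an unadjusted p under 0.05 or otherwise up to 3 with the lowest p, and genes of like pattern. Rgs13, Il17rb, Chat, Cd79a, Ptprc and the listed genes at the floor lie outside this rule and were named after their values were seen. So were Fyb, Inpp5j, Plcb2, Itpr3, Ppbp, Itga2b, Pf4, Tph1 and Insl5. Not every gene so allowed is printed, and 1 listed gene is not reported here. The members and lists were chosen with earlier results of these data known. Totals of 15329810 to 16533732 counts per tumor make 3 counts the floor. The intervals of the ratios of summed counts and the floors cover counting error only, whereas the edgeR intervals also include the spread between tumors. The labels do not say that same-group tumors came from separate mice, so p-values measure the spread between these samples. Promoter windows are from RefSeq, and exons from GENCODE on GRCm38.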

Additional observations from a re-analysis of the deposited data

How the results depend on the processing

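Under the 16 alternatives, 0 of the 8 tuft cell genes reached an unadjusted p under 0.05, and 4 or 5 of the 7 with a fold change were above 0. For the 6 genes under the filter, the 2 alternatives that change the filter repeat the main fit and could not differ from it. Values near 0 changed sign. With the replicate number as a block Dclk1 was 0.012, and over single tumors left out the range was -0.20 to 0.16 for Dclk1, -0.40 to 0.11 for Avil and -0.036 to 0.28 for Sh2d6. Trpm5 ran from 0.071 to 0.36, Pou2f3 from 0.40 to 0.72, Gnat3 from 1.19 to 2.96 and Gfi1b from -2.09 to -0.86. Fits with 2 tumors in a group assume that both groups vary alike.

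Over the whole table, genes with an unadjusted p under 0.05 numbered 1741 without the filter, 553 with Y-linked reads as a covariate and 535 to 1665 with single tumors left out, against 1008. At an adjusted p under 0.05, 0 became 6 without the filter, 28 with DESeq2 and 0 to 1 with single tumors left out, the 1 without Tmem173iΔmye replicate 1. Genes of the 5 lists with an unadjusted p under 0.05 numbered 3 of 36 in the main fit. Without the filter they numbered 6, with list genes under the filter now included, beside 1741 of all 30939 genes with a count, or 5.63%. With the replicate block they numbered 7 of 36, beside 1504 of 16426 genes tested. With single tumors left out they numbered 1 to 6, beside 535 to 1665 genes over the whole table. Without the filter the list median was -0.54 for the taste cascade and 0.042 for the lipid mediator and acetylcholine enzymes. The latter was 0.088 at a mean FPKM of at least 1, and that of the other tuft markers -0.18 with epithelial library sizes. With single tumors left out, the list medians ran from -0.36 to -0.14 for the taste cascade, -0.34 to 0.27 for the transcription regulators, -0.16 to 0.38 for the enzymes, -0.097 to 0.083 for the other tuft markers and 0.019 to 0.46 for the type 2 circuit. The cause was not tested.

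Same-numbered tumors deviated from their group means with correlations of 0.31, 0.0085 and 0.15, and Tmem173fl/fl replicate 2 correlated best with Tmem173iΔmye replicate 3 (0.22), so the numbers were not taken to pair the tumors. The replicate block gave 1504 genes at an unadjusted p under 0.05. Few reads limit Pou2f3, Gnat3, Gfi1b and Il25.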
